A study of Homo sapiens with 21 samples.

Results

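The comparison was between AGO2 fPAR-CLIP at 0.15 U/µl and at 1.5 U/µl RNase I. All deposited clusters of both libraries were used, 2425 at 0.15 U/µl and 2374 at 1.5 U/µl, and these are 2 of the 21 samples listed for the series. fPAR-CLIP is a form of PAR-CLIP, which maps the RNA crosslinked to a protein, that uses a fluorescent in place of a radioactive label, and the study optimised its library preparation for several RNA-binding proteins. Both libraries came from Flp-In T-REx 293 cells, a human embryonic kidney line in which a FLAG-HA tagged AGO2 transgene is stably integrated, so tagged AGO2 was present in both. The labels give 4-thiouridine at 100 µM for 8 to 12 hours, crosslinking by UV light of either 312 nm or 365 nm at a dose of 0.3 J/cm2, and purification on anti-FLAG M2 magnetic beads. The general protocol names NP40 lysis for cytoplasmic proteins with an optional step of 0.1 U/µl RNase I in the lysate, and does not describe steps at 0.15 or 1.5 U/µl. The 2 doses are taken from the sample titles, which are the only labels that tell the libraries apart. There was 1 library per dose, so no test of the dose was possible, and every interval given is a 95% interval that covers counting error only.

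Argonaute proteins such as AGO2 hold a microRNA and use its seed, the bases near the 5′ end, to find complementary sites, mostly in the 3′ UTRs of mRNAs. In PAR-CLIP the thiouridine that is crosslinked to the protein is read as a T-to-C change, so a cluster of reads with such changes marks a contact. RNase I trims the RNA that the protein does not cover and has little base preference. MicroRNAs themselves lie within the protein, while target mRNAs are held through the seed and reach outside it.

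The mature microRNAs on which the results turn are shown with the seed, positions 2 to 8 from the 5′ end, in capitals. The sequences are those of RefSeq on GRCh38.p14, which is the build of the cluster coordinates (hg38). The cluster sequence equalled the RefSeq hairpin at the same positions in all 262 miRNA clusters that had a hairpin in the RefSeq table. The first 4 share 1 seed and come from genes among the 6 microRNA genes with most reads at 1.5 U/µl, and the next 2 share the let-7 seed:
hsa-miR-17-5p: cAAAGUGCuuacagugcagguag
hsa-miR-20a-5p: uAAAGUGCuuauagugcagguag
hsa-miR-93-5p: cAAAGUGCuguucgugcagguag
hsa-miR-106b-5p: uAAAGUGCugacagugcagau
hsa-let-7a-5p: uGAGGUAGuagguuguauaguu
hsa-let-7f-5p: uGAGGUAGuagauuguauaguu
The following served as seeds for target matches, and miR-92a, miR-25 and miR-32 share theirs:
hsa-miR-19b-3p: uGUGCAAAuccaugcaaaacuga
hsa-miR-92a-3p: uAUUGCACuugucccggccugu
hsa-miR-25-3p: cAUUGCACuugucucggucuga
hsa-miR-32-5p: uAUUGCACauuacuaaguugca
hsa-miR-16-5p: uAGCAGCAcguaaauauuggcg
hsa-miR-103a-3p: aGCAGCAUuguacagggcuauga
hsa-miR-130b-3p: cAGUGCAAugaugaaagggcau
hsa-miR-301a-3p: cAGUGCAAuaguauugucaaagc
The last 2 are the strands covered by the clusters of the 2 microRNA genes, of those with at least 50 reads at both doses, whose shares were at least 2-fold lower at 1.5 U/µl:
hsa-miR-26b-3p: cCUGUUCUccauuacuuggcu
hsa-miR-34a-3p: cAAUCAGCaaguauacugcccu

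The clusters held 295889 reads at 0.15 U/µl and 335870 at 1.5 U/µl, with a minimum of 5 and a median of 9 reads per cluster at both doses. Distinct read sequences made up 74.9% of the reads at the low dose and 68.1% at the high dose. Of 6 microRNAs chosen as marks of 293 cells, MIR17, MIR20A, MIR93 and MIR320A had 9129 to 26982 reads at both doses, and MIR92A1 and MIR10A had no named cluster. Of 8 microRNAs of other tissues, MIR451A had 21 and 18 reads, MIR142 had none at the low and 23 at the high dose, and the remaining 6 had no cluster. A gene or class is described by its share of the reads in the file, so a higher share of one RNA and a lower share of the rest cannot be told apart.

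At the higher dose the clusters lay less often on mature mRNA. The mRNA exon classes together, which are 3′ UTR, coding, 5′ UTR, start codon and stop codon, made up 1498 clusters (61.8%) at 0.15 U/µl and 1217 (51.3%) at 1.5 U/µl, a difference of -10.5 points (Newcombe interval -13.3 to -7.71). The 3′ UTR class went from 939 to 708 clusters and the coding class from 375 to 292. These 2 classes kept nearly the same ratio, because 3′ UTR clusters were 71.5% (Wilson interval 69.0 to 73.8) of 3′ UTR plus coding clusters at the low dose and 70.8% (67.9 to 73.5) at the high dose. The 5′ UTR class ran the other way, with 101 clusters (4.16%) at the low dose and 140 (5.90%) at the high dose, a difference of 1.73 points (0.50 to 2.98). Start codon clusters were 45 and 44, and stop codon clusters were 38 and 33.

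Outside mature mRNA several classes had more clusters at 1.5 U/µl. Intron clusters numbered 254 at the low dose and 359 at the high dose, a difference of 4.65 points (2.76 to 6.54). Clusters without annotation numbered 338 and 412, a difference of 3.42 points (1.36 to 5.47). The miRNA class had 142 clusters at 0.15 U/µl and 165 at 1.5 U/µl, and its difference of 1.09 points was within counting error (-0.29 to 2.49). The snRNA class had 22 and 30 clusters and the snoRNA class 31 and 34, which also lay within counting error.

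**Figure D1:**
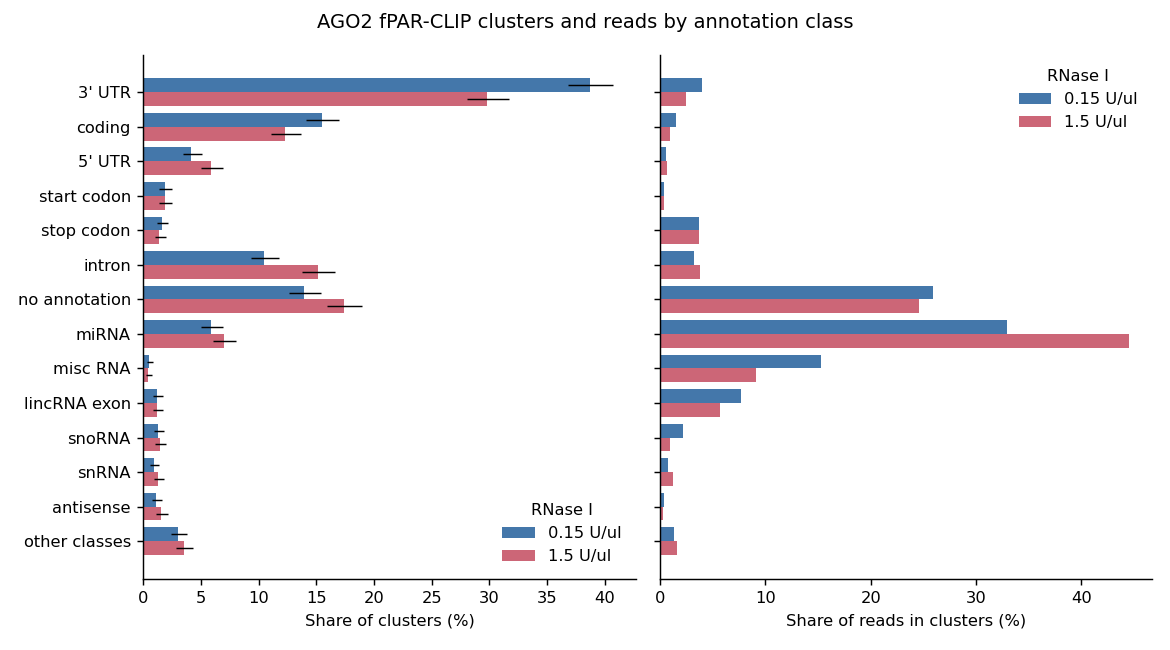
Share of AGO2 clusters (left, bars with 95% Wilson intervals) and of reads in clusters (right, no replicates and so no error bars) in each annotation class of the deposited files, at 0.15 U/µl (blue) and 1.5 U/µl RNase I (red), 1 library each. The 3′ UTR and coding bars are shorter at 1.5 U/µl, the intron and no annotation bars are longer, and reads on miRNA are the class with the largest gain.

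By reads the picture was set by small RNAs. The 3′ UTR class held 11751 reads (3.97%) at the low dose and 8397 (2.50%) at the high dose, and the coding class 4631 (1.57%) and 3324 (0.99%). The ratio of shares was close to 1.6 in favour of the low dose in both (1.59 for 3′ UTR and 1.58 for coding). The snoRNA class had the largest ratio toward the low dose among classes of over 1000 reads, 2.36, with 6613 and 3177 reads. The snRNA class had a ratio of 1.61 toward the high dose, with 2206 and 4043 reads. The share of reads in the miRNA class was 1.35 times as high at the high dose, 97501 against 149522 reads. The stop codon class held 3.72% and 3.73%.

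Most of the reads without annotation lay on tRNA genes, which the authors' classes do not name. Clusters that overlapped a RefSeq tRNA gene numbered 151 at 0.15 U/µl and 159 at 1.5 U/µl and held 29.8% and 27.0% of all reads. They accounted for 75.7% of the reads in the class without annotation at the low dose and 76.8% at the high dose. They also held 97.7% and 97.4% of the lincRNA exon reads, where RP4-561L24.3, a cluster of 21098 and 17113 reads over a tRNA-Arg gene, was the gene name with most reads at 0.15 U/µl. Each tRNA gene was taken to lie on the strand of its cluster. Clusters that reached at least 5 nt past the 3′ end of the gene held 75.6% of the tRNA reads at the low dose and 77.5% at the high dose. Those that reached at least 5 nt past the 5′ end held 42.7% and 41.9%, and a cluster can count for both ends. Those that stayed within the gene held 11.3% and 15.6%.

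Near-identical tRNA copies can exchange reads, so tRNAs were summed by anticodon. Of 38 anticodons with at least 50 reads at both doses, 1 was at least 2-fold higher at 1.5 U/µl (2.63%) and 2 were at least 2-fold higher at 0.15 U/µl (5.26%), with a median log2 ratio of -0.19. tRNA-Lys(TTT) had 8652 reads at the low dose and 4472 at the high dose, a log2 ratio of -1.13. Its difference came with 1 cluster, at TRK-TTT6-1, of 4888 reads at the low dose and no overlapping cluster at the high dose. tRNA-Leu(AAG) had 237 and 67 reads, a log2 ratio of -2.01, and tRNA-Ala(TGC) had 50 and 118, a log2 ratio of 1.06. tRNA-Leu(CAA), below the minimum at the low dose, had 27 reads there and 2526 at the high dose, of which 2520 were in 1 cluster at TRL-CAA3-1. The other anticodons left out by the minimum were mostly higher at the high dose as well. They were tRNA-Trp(CCA) with 11 and 628 reads, tRNA-Gly(TCC) with 0 and 486, tRNA-Ala(AGC) with 17 and 191 and tRNA-Val(AAC) with 36 and 32. tRNA-Leu(TAG) and tRNA-Thr(AGT) had higher shares at the high dose, with log2 ratios of 0.48 and 0.16, and tRNA-Arg(TCT) and tRNA-Pro(CGG) lower ones, with -0.49 and -0.24. The sign of the median over anticodons changed to 0.09 when the reads outside microRNA genes were taken as the total.

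At the gene level 180 names had at least 50 reads at both doses. Of these, 6 had a share at least 2-fold higher at 0.15 U/µl (3.33%) and 6 at least 2-fold higher at 1.5 U/µl (3.33%), and the median log2 ratio of 1.5 over 0.15 U/µl was 0.11. Over all 180 the log2 ratio was above 0 in 101 and below 0 in 79, against which the counts of each list below are to be read. The 75 microRNA genes among them had a median of 0.35, with 54 above and 21 below 0. The 105 genes other than microRNA genes had a median of -0.05, with 47 above and 58 below 0. Median-of-ratios scaling moved every log2 ratio by -0.11, and scaling to the reads outside microRNA genes moved every one by 0.27, so directions are read against these shifts.

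**Figure D2:**
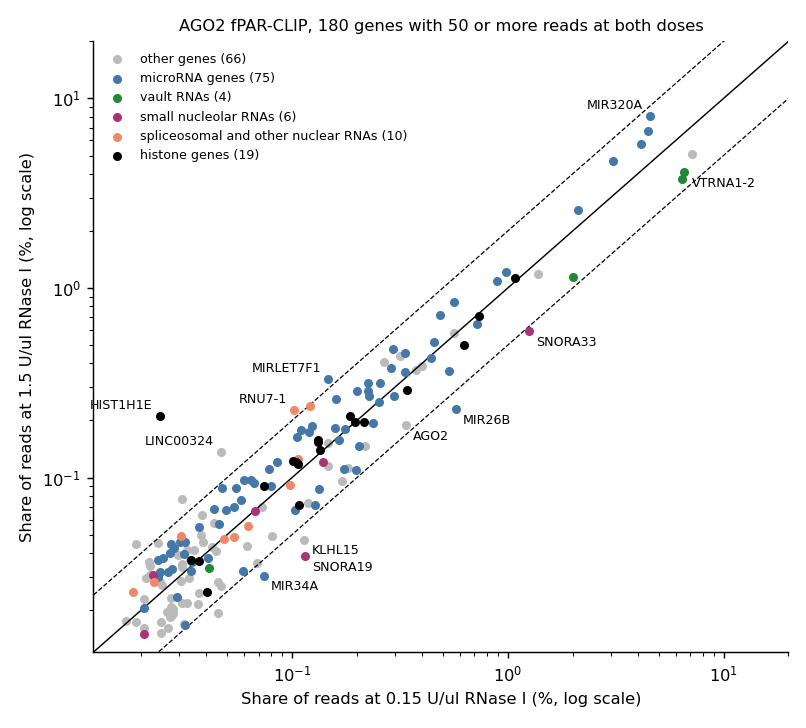
Share of reads at 0.15 U/µl (x axis) against 1.5 U/µl RNase I (y axis), both in percent on log scales, for the 180 gene names with at least 50 reads at both doses, 1 point per gene coloured by RNA type. The solid line is equality and the dashed lines are 2-fold, and 6 genes lie beyond the dashed line on each side.

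The 6 microRNA genes with most reads at 1.5 U/µl all had higher shares there than at 0.15 U/µl. MIR320A, which gives rise to a Drosha-independent microRNA, had 13506 reads (4.56%) at the low dose and 26982 (8.03%) at the high dose, a 1.76-fold difference (1.72 to 1.80). MIR93 had 13193 and 22487 reads, 1.502-fold (1.47 to 1.53). MIR17 had 9129 and 15673 reads, 1.51-fold (1.47 to 1.55), and MIR20A had 12301 and 19387, 1.39-fold (1.36 to 1.42). These last 3, with the seed AAAGUGC shown above, derive from the miR-17-92 and miR-106b-25 loci, which encode growth-promoting microRNAs. MIR106B of the same seed had 2898 and 4072 reads, 1.24-fold (1.18 to 1.30), and MIR182 had 6238 and 8618, 1.22-fold (1.18 to 1.26). None of these 6 passed 2-fold.

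Within loci the members did not move alike. In the miR-17-92 list 3 members had enough reads, and MIR19B1 with 877 and 900 reads had a log2 ratio of -0.15 beside 0.60 for MIR17 and 0.47 for MIR20A. The MIR19B1 cluster at 0.15 U/µl covered the 3p arm only, with 877 reads, whereas at 1.5 U/µl there was a 3p cluster of 559 reads and a 5p cluster of 341 reads. MIR15B, which is transcribed beside MIR16-2, had a cluster of 262 reads at the low dose and none at the high dose.

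Among 7 let-7 genes with enough reads, 1 was past 2-fold, 4 had log2 ratios above 0 and 3 below, and the median was 0.10. Median-of-ratios scaling turned the sign of that median to -0.01. MIRLET7F1 had 436 reads at the low dose and 1106 at the high dose, 2.23-fold (2.00 to 2.50). MIRLET7A3 had 1666 and 2841 reads, a log2 ratio of 0.59, while MIRLET7A1 with 486 and 527 and MIRLET7F2 with 749 and 837 had log2 ratios of -0.07 and -0.02. The mature let-7a and let-7f shown above are close in sequence and are each made from several genes, so the split of reads between these genes is uncertain.

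Of the 21 microRNA genes with a lower share at the high dose 2 were past 2-fold. MIR26B had 1697 reads (0.574%) at 0.15 U/µl and 768 (0.229%) at 1.5 U/µl, 2.51-fold lower (2.30 to 2.73). Its cluster covered the 3p arm only at both doses, which is the strand shown above, and at 34 and 33 nt it was longer than that strand. MIR34A, a p53-induced microRNA, had 219 and 102 reads, 2.44-fold lower (1.92 to 3.11). Its cluster also covered the 3p arm only and, at 36 and 35 nt, was also longer than the strand shown. MIR361 with 94 and 56 reads, on the 3p arm, had a log2 ratio of -0.93, and MIR30C1 with 175 and 108 had -0.88. MIR26A2, with a cluster over both arms, had 605 and 491 reads and a log2 ratio of -0.48, and MIR181A1 had 1582 and 1229 and -0.55. MIR1229 had 195 reads at the low dose and 24 at the high dose, which is below the minimum for a comparison.

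The arm covered did not by itself separate these genes. Of 66 microRNA genes with a RefSeq hairpin and enough reads, 18 had clusters on the 3p arm only at both doses, with a median log2 ratio of 0.44, 14 above and 4 below 0, and both of the 2-fold lower genes were among them. The 4 below 0, which were MIR26B, MIR34A, MIR361 and MIR1296, had clusters of 33 to 36 nt. The 14 above 0 had clusters of 19 to 28 nt, and the part of cluster length was not tested. The 12 genes with 5p clusters at both doses had a median of 0.42, with 9 above and 3 below. The 16 genes whose clusters spanned both arms had a median of 0.24, with 10 above and 6 below. Clusters spanning both arms numbered 19 at the low dose and 20 at the high dose and held 40010 and 60954 reads, at median lengths of 64 and 65 nt.

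The vault RNAs, short noncoding RNAs of the vault particle, all had lower shares at the high dose. VTRNA1-2 had 19477 and 13680 reads, 1.62-fold lower (1.58 to 1.65). VTRNA1-3 had 19098 and 12650, 1.71-fold lower (1.68 to 1.75), and VTRNA1-1 had 5905 and 3862, 1.74-fold lower (1.67 to 1.81). The pseudogene VTRNA3-1P had 122 and 112 reads, and its ratio of 1.24 was within counting error (0.949 to 1.61). None of the 4 passed 2-fold, and the median log2 ratio of -0.73 stayed below 0 at -0.46 when the reads outside microRNA genes were the total. Of the Y RNAs, RNY1 had 518 reads at the low dose and no cluster at the high dose, and RNY3 had 100 and 123.

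Small nucleolar RNAs, guides of RNA modification, included 2 of the 6 genes past 2-fold toward the low dose. SNORA19 had 338 and 129 reads, 2.97-fold lower at 1.5 U/µl (2.42 to 3.67), and SNORA33 had 3694 and 1985, 2.11-fold lower (2.00 to 2.23). With the reads outside microRNA genes as total, the log2 ratio of SNORA33 was -0.81, no longer past 2-fold. Of 6 members with enough reads 1 had a log2 ratio above 0 and 5 below, against 101 above and 79 below over all 180 genes. Their median of -0.33 was -0.06 with the reads outside microRNA genes as total. SNORA4 with 1597 reads and SNORA17 with 197 had clusters at the low dose alone. SNORA51 with 121 reads, SNORA67 with 90 and SNORD72 with 77 had clusters at the high dose alone.

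Of 10 spliceosomal and other nuclear small RNAs with enough reads 6 had log2 ratios above 0 and 4 below, with a median of 0.26, against 101 above and 79 below and a median of 0.11 over all 180 genes. RNU7-1, the U7 RNA that guides the 3′ processing of histone mRNA, had 302 and 765 reads, 2.23-fold higher at the high dose (1.95 to 2.56). RNU12 and RNU11, of the minor spliceosome, had 360 and 799 reads (log2 ratio 0.97) and 315 and 419 reads (0.23). RNU5A-1, RNU5B-1 and RNU4-2, of the major spliceosome, had log2 ratios of -0.16, -0.10 and -0.02. RNU2-2P had 27 reads at the low dose and 753 at the high dose, which included a cluster of 720 reads with no counterpart at the low dose. In the opposite direction RNU4-1 had 75 reads at the low dose and 43 at the high dose, and RNU4ATAC had 82 and no cluster. These genes have near-identical copies, so the copy named is uncertain.

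Replication-dependent histone genes held 4.78% of reads at the low dose and 4.80% at the high dose. Of 19 with enough reads 1 passed 2-fold, and the median log2 ratio was 0.07, which turned to -0.04 under median-of-ratios scaling. HIST1H4H had 3188 and 3777 reads and HIST1H3B had 2175 and 2377. HIST1H1E, a linker histone, had 72 and 708 reads, 8.66-fold higher at the high dose (6.79 to 11.2), and 620 of the 708 reads lay in 1 stop codon cluster with no counterpart at the low dose. HIST1H4A had 515 reads at the low dose and no named cluster at the high dose, but the same position held a cluster of 654 reads without a name there, so that absence is one of annotation. Histone copies are close in sequence, which makes the single gene uncertain.

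Some further gene names past 2-fold toward the high dose overlap other RNAs. LINC00324 had 138 and 459 reads, 2.93-fold higher (2.42 to 3.57), and 290 of the 459 lay in a cluster over the tRNA gene TRW-CCA1-1. RNA5SP387, a 5S rRNA pseudogene, had 91 and 258 reads, 2.50-fold higher (1.959 to 3.21), and copies of 5S cannot be told apart. RNA5SP202, another such name, ran the other way with 272 and 43 reads, below the minimum at the high dose. All 5S and 5.8S names together held 437 and 431 reads, 0.148% and 0.128% of all reads. AC018766.4 had 56 and 150 reads, 2.36-fold higher (1.73 to 3.27). Of mRNAs, FARSA had 71 and 151 reads, mainly in introns, with a log2 ratio of 0.91, and RALGDS had 64 and 121 with 0.74.

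Of the mRNAs listed as known microRNA targets 3 had enough reads, of which 1 was at least 2-fold lower at the high dose. KLHL15, a ubiquitin ligase adaptor, had 337 reads in 17 clusters at 0.15 U/µl and 158 reads in 8 clusters at 1.5 U/µl, 2.42-fold lower (2.00 to 2.94). Of the 17 clusters 6 overlapped a cluster at the high dose. BCL2L11, the pro-apoptotic protein BIM, had 93 and 57 reads, 1.85-fold lower (1.32 to 2.62), and IGF2BP1, an mRNA-binding protein, had 81 and 70, a ratio of 1.31 that was within counting error (0.942 to 1.84). NUFIP2 had 77 and 10 reads and so lay below the read minimum at the high dose. The list of 23 target mRNAs, chosen with earlier results of these data known, held 0.254% and 0.118% of the reads in 46 and 29 clusters. Its ratio toward the low dose was 2.16, against 1.59 for all 3′ UTR reads. Of its 751 and 395 reads, KLHL15 gave 337 and 158 and NUFIP2 77 and 10, so 2 genes weigh heavily in that total. OIP5-AS1, a cytoplasmic long noncoding RNA, had 134 and 65 reads, 2.34-fold lower (1.73 to 3.20), but its log2 ratio was -0.96 with the reads outside microRNA genes as total, no longer past 2-fold. LINC00657 had 110 and 83 with a log2 ratio of -0.59. Of the 4 long noncoding RNAs with enough reads 2 had log2 ratios above 0 and 2 below, with 1 past 2-fold each way, and their median of -0.17 turned to 0.10 with the reads outside microRNA genes as total.

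AGO2's own mRNA was covered along its coding sequence. It had 22 clusters and 994 reads at the low dose and 22 clusters and 633 reads at the high dose, 1.78-fold lower (1.61 to 1.97). All 22 clusters at the low dose and 21 of the 22 at the high dose lay in the coding, start codon or stop codon classes, and 1 lay in the 3′ UTR. The median cluster was 62 nt long at the low dose and 48 nt at the high dose, against 27 nt for coding clusters in general. RNA of the tagged transgene and of the native gene cannot be told apart here. DROSHA, the nuclear microRNA-processing enzyme, had 39 and 58 reads.

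Overlap of clusters followed read depth. Of the 0.15 U/µl clusters 951 (39.2%) shared 1 nt or more with a 1.5 U/µl cluster of the same strand, and 960 (40.4%) of the 1.5 U/µl clusters overlapped a 0.15 U/µl cluster. Among clusters of 5 to 9 reads 15.8% (13.8 to 17.9) of those at the low dose and 19.4% (17.3 to 21.7) of those at the high dose had a counterpart. Among clusters of 500 or more reads the values were 94.7% (87.1 to 97.9) and 92.9% (85.4 to 96.7). Since clusters of under 5 reads are not listed, the absence of a cluster is not the absence of reads.

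**Figure D3:**
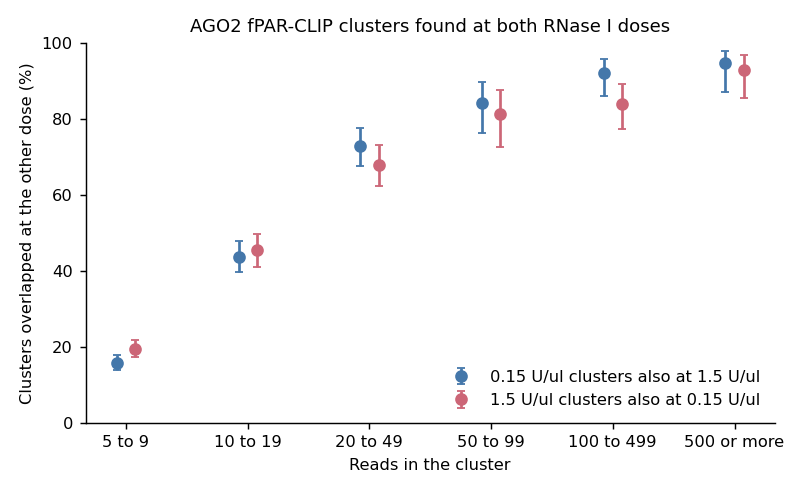
Percent of clusters with an overlapping cluster at the other RNase I dose (y axis) by the number of reads in the cluster (x axis), for the 0.15 U/µl (blue) and 1.5 U/µl (red) library, with 95% Wilson intervals. The share climbs from under 20% at 5 to 9 reads to over 90% at 500 or more reads in both directions.

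Classes differed in how many clusters were found again. At the low dose 78.9% (71.4 to 84.8) of miRNA clusters, 58.6% (53.3 to 63.7) of those without annotation and 48.8% (42.7 to 54.9) of intron clusters overlapped one at the high dose. For 3′ UTR clusters the share was 25.8% (23.1 to 28.7) and for coding clusters 26.7% (22.4 to 31.4), and their median of 8 reads was lower than the 91 of miRNA clusters. In the opposite direction 34.3% (30.9 to 37.9) of 3′ UTR, 36.6% (31.3 to 42.3) of coding and 34.8% (30.1 to 39.9) of intron clusters at 1.5 U/µl overlapped one at 0.15 U/µl.

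3′ UTR clusters with and without a seed match were compared for overlap, with no test of the difference. At the high dose 45.3% (38.8 to 52.0) of 3′ UTR clusters with a match overlapped a low dose cluster, against 29.6% (25.7 to 33.7) of those without. At the low dose the shares were 30.5% (25.7 to 35.8) with a match and 23.4% (20.2 to 26.9) without, with intervals that overlap. Among clusters of 5 to 9 reads at the low dose the order was the reverse, with 10.2% (6.57 to 15.6) and 12.7% (9.87 to 16.3), and at the high dose the values were 26.7% (19.6 to 35.2) and 20.1% (16.2 to 24.5). Among those of 10 or more reads the shares were 56.1% (47.8 to 64.1) and 44.7% (38.1 to 51.5) at the low dose. At the high dose they were 69.1% (59.2 to 77.6) and 54.8% (46.4 to 63.0).

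The clusters with most reads that were found at 1 dose only came mostly from tRNA, small noncoding RNA and microRNA genes. At the low dose they were led by TRK-TTT6-1 with 4888 reads (chr6:27335029-27335067), SNORA4 with 1597 (chr3:186787685-186787749), an unnamed cluster of 1185 reads (chr5:32629192-32629217) and RNY1 with 518. The T-to-C share of their reads was 30.0%, 29.1%, 12.9% and 20.7%. Of the 10 such clusters with most reads 9 were below the 59.97% of all reads in that library, and MIR331 was above it with 66.9%. At the high dose they were led by TRL-CAA3-1 with 2520 reads (chr6:27602562-27602682), MIR4721 with 1091 (chr16:28843915-28843949), RNU2-2P with 720, MIR501 with 621 and HIST1H1E with 620. Their T-to-C shares were 38.1%, 23.5%, 36.9%, 40.1% and 43.1%. Of the 10 with most reads 9 were below the 60.31% of all reads there, and the LINC00324 cluster was above it with 68.3%. Clusters of 500 or more reads found at both doses also had median T-to-C shares below these values, 55.9% at the low and 56.2% at the high dose. At that depth the 4 and 6 clusters found at 1 dose only had medians of 24.9% and 39.1%. A share below that of all reads is therefore not particular to clusters found at 1 dose, though their median was the lower one in each depth group from 10 reads up. At 50 to 99 reads it was 43.2% against 62.6% at the low dose and 50.4% against 62.3% at the high dose. At 5 to 9 reads it was 85.7% for both kinds at the low dose and 87.5% against 83.3% at the high dose. Among the microRNA genes, MIR331, MIR1226 and MIR15B had 284, 269 and 262 reads at the low dose alone. MIR196A2, which lies in the HOXC cluster, had 397 reads and MIR126, known from endothelium, had 247 at the high dose alone. Of 1471 gene names at the low dose, 686 had no cluster of that name at the high dose. Their median was 7 reads, and 17 of them had 50 or more. Of 1474 at the high dose, 689 had no cluster of that name at the low dose. Their median was also 7 reads, and 24 of them had 50 or more. The 17 include HIST1H4A, whose position held a cluster without a name at the high dose.

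T-to-C values differed little between the doses, and the sign depended on the measure. Of the T positions read, 9.50% were read as C at the low dose and 9.87% at the high dose, and 59.97% and 60.31% of reads carried at least 1 change. By class the share of T positions read as C was 10.6% at both doses in 3′ UTRs and 12.7% and 13.0% in coding exons. It was 9.68% and 10.6% in introns, 9.93% and 10.4% on microRNAs, and 4.94% and 6.16% on snoRNAs. Of the classes with over 1000 reads at both doses, 3 were lower at the high dose, with 6.85% and 6.12% for snRNAs, 13.1% and 13.0% for the misc RNA class that holds the vault RNAs, and 10.2% and 8.75% for processed transcripts. Other changes than T-to-C affected 5.23% and 5.22% of reads.

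Sites found at both doses differed in T-to-C share in both directions. In 923 pairs of clusters that overlapped one to one, the median T-to-C share of reads was 71.4% at both doses, and it was higher at 1.5 U/µl in 443 pairs and lower in 429. It differed by 20 points or more in 175 pairs, most of them with under 50 reads at a dose. Among the 243 pairs with at least 50 reads at both doses the median absolute difference was 3.62 points, and 6 pairs differed by 20 points or more, of which 5 were higher and 1 lower at 1.5 U/µl. The lower one, in SNORA46, went from 52.9% of 51 reads to 24.0% of 50 reads, and one of the higher ones, in a PLEC intron, from 48.4% of 62 reads to 73.7% of 99 reads. These 2 were chosen after their values were seen. Of the 14 snoRNA pairs 12 had a higher share at the high dose, with a median change of 3.51 points.

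The lengths of all clusters differed little between the doses, while sites found at both doses were more often shorter than longer at the high dose. The median length was 28 nt at both doses, with quartiles of 24 and 33 nt at the low dose and 24 and 32 nt at the high dose. Of all 923 one-to-one pairs 423 (45.8%, 42.6 to 49.1) were shorter at the high dose and 325 (35.2%) longer. The remaining 175 were equal, and the median change was 0 nt. In the one-to-one pairs of 3′ UTR clusters the high dose cluster was shorter in 135 of 239 pairs (56.5%, 50.1 to 62.6) and longer in 90, with a median change of -2 nt. Of the 96 coding pairs 57 were shorter and 32 longer, with a median change of -1 nt. MicroRNA pairs had a median change of 0, with 31 shorter and 36 longer of 104, and in pairs without annotation 69 were shorter and 74 longer of 197. The most frequent crosslink position of the cluster was the same nucleotide at both doses in 41.8% of all pairs, in 52.9% of microRNA pairs and in 33.9% of 3′ UTR pairs. A cluster that gained reads can also extend, and 3′ UTR pairs had a median log2 read ratio of -0.38, so the part of read number in the shorter clusters was not tested.

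Matches to the seeds of 13 microRNA families were sought on the transcript strand of each cluster sequence. These 13 are called expressed below, which is a label of the list and was not measured here. MIR92A1 and MIR10A, for example, had no named cluster at either dose. The 7-base sites were CTACCTC for let-7, GCACTTT for miR-17/93, GCACCTT for miR-18, TTTGCAC for miR-19, GTGCAAT for miR-92/25, TGCTGCT for miR-15/16 and ATGCTGC for miR-103 and miR-107. They were TGTTTAC for miR-30, ACAGGGT for miR-10, TACTTGA for miR-26, ACTGTGA for miR-27, TTGCACT for miR-130 and miR-301 and CACTGCC for miR-34. Several of these sites overlap one another (miR-15/16 with miR-103, and miR-17/93 and miR-19 with miR-130), so a cluster can count for more than 1 family. Sites of 4 families of other tissues, ACACTCC for miR-122, ACATTCC for miR-1, GGACCAA for miR-133 and ACACTAC for miR-142, were counted beside them. A match describes the letters in the cluster and does not show pairing.

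Fewer clusters held an expressed seed match at the high dose. The count was 497 of 2425 (20.5%) at 0.15 U/µl and 358 of 2374 (15.1%) at 1.5 U/µl, a difference of -5.41 points (-7.57 to -3.25). The 4 families of other tissues had matches in 13 (0.536%) and 4 (0.168%) clusters, a difference of -0.37 points (-0.76 to -0.02). A lower share at the high dose was therefore not particular to the expressed families. Within 3′ UTRs the difference was smaller, with 315 of 939 (33.5%) and 214 of 708 (30.2%), and the interval of the difference, -7.81 to 1.24 points, included 0. Coding clusters had matches in 25.6% and 22.6% (difference -9.41 to 3.61 points) and intron clusters in 7.87% and 5.57%.

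By family, the 3′ UTR shares of the 2 doses lay within counting error of each other for every one of the 13 families. miR-17/93 matches were in 58 of 939 clusters (6.18%) and 44 of 708 (6.21%), and miR-130 matches in 5.11% and 5.37%. miR-15/16 matches were in 7.45% and 6.07%, miR-19 matches in 6.60% and 5.65%, and miR-92/25 matches in 5.11% and 4.24%. In coding clusters let-7 matches were in 36 of 375 (9.60%) at the low dose and 15 of 292 (5.14%) at the high dose, a difference of -4.46 points (-8.41 to -0.38). miR-103 matches in coding clusters were 16 (4.27%) and 4 (1.37%), a difference of -2.90 points (-5.58 to -0.24). These 2 were the only families among the 13 whose interval in coding clusters excluded 0, without adjustment for the number of families. miR-34 matches in 3′ UTRs numbered 10 and 7, and miR-26 matches numbered 3 and 6.

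Where a 3′ UTR cluster held a match, its most frequent crosslink position lay most often 1 nt upstream of the match at both doses. It lay 1 to 5 nt upstream in 169 of 315 clusters (53.7%, 48.1 to 59.1) at the low dose and in 88 of 214 (41.1%, 34.7 to 47.8) at the high dose, a difference of -12.5 points (-20.9 to -3.86). Positions downstream of the match accounted for 17.8% and 27.1%, and positions inside it for 14.6% and 14.0%. Where a cluster held several matches, the one that placed this position nearest to 1 nt upstream was used at both doses, which by itself adds to the counts just upstream. In the 91 one-to-one pairs with a match at both doses, 44 had the position 1 to 5 nt upstream at the low dose and 37 at the high dose, of which 27 had it at both.

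**Figure D4:**
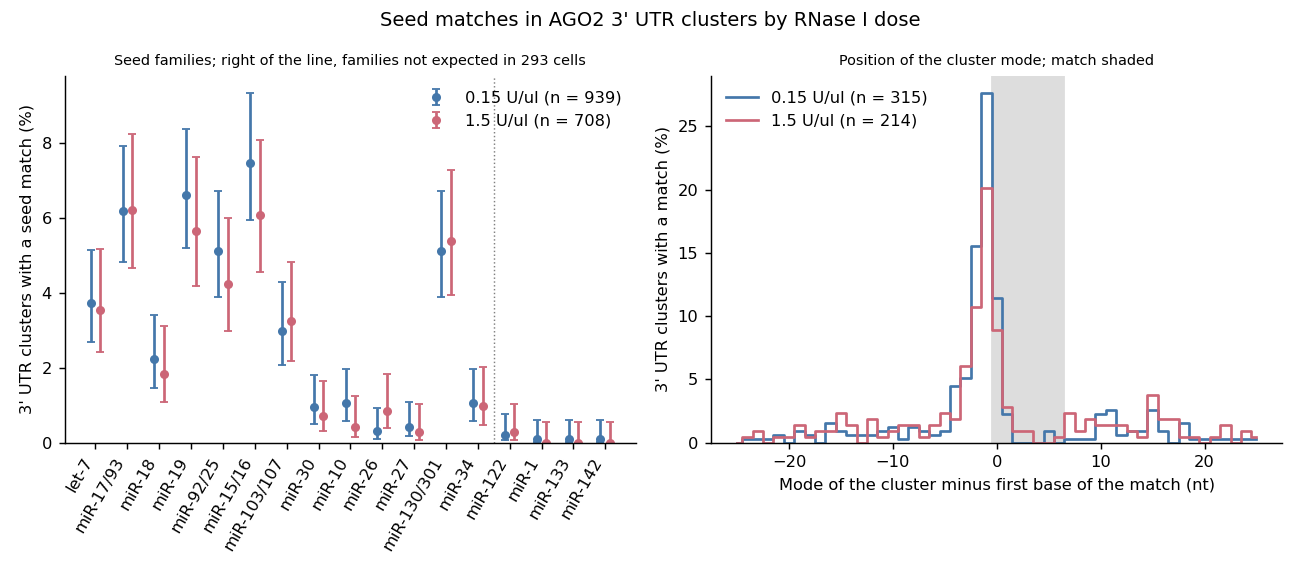
Left, percent of 3′ UTR clusters with a 7-base seed match for each family at 0.15 U/µl (blue, n = 939) and 1.5 U/µl (red, n = 708), with 95% Wilson intervals, and 4 families of other tissues to the right of the dotted line. Right, distance in nt from the first base of the match (grey band) to the most frequent crosslink position, in percent of the clusters with a match, where both curves peak 1 nt upstream and the peak is lower at 1.5 U/µl.

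The most read 3′ UTR clusters with a match at both doses show the sites themselves. Each line gives part of the cluster, 5′ to 3′ on the transcript strand, with the seed match in capitals, in hg38 coordinates:
PRTG, let-7 site, chr15:55619592-55619616, minus strand: cccctttgctgactatCTACCTCag
SHOC2, miR-17/93 site, chr10:111012946-111012971, plus strand: tgctgctgaactaaatGCACTTTtcc
BCL2L11, miR-19 site, chr2:111168307-111168332, plus strand: cctggcttacttgtgtTTTGCACtga
KLHL15, miR-92/25 site, chrX:23986373-23986398, minus strand: agatcttagaatattgGTGCAATatt
RGMB, miR-103 site, chr5:98796126-98796145, plus strand: tctagaaaaaATGCTGCttg
SMIM13, miR-30 site, chr6:11136289-11136313, plus strand: gaactctgggctgagTGTTTACcag
CNOT4, miR-34 site, chr7:135388102-135388117, minus strand: ctaatgCACTGCCtag
The KLHL15 cluster had 124 reads at the low dose and 66 at the high dose, a log2 ratio of shares of -1.09, and 80.6% and 81.8% of its reads carried a T-to-C change. The RGMB cluster had 52 and 14 reads (-2.08) and the SMIM13 cluster 27 and 9 (-1.77). The SHOC2 cluster, of a scaffold protein of RAS signalling, ran the other way with 79 and 131 reads (0.55), and it also holds a miR-15/16 site. The PRTG cluster had 30 reads at both doses (-0.18), the BCL2L11 cluster 53 and 45 (-0.42) and the CNOT4 cluster 24 and 28 (0.04). These single sites therefore differed in both directions.

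FUBP3 and KHSRP, RNA-binding proteins with KH domains, were tagged and processed at the same 2 doses, with 1 library each, and served as the comparison. The protocol names RIPA lysis and sonication for KHSRP, so lysis differed between the proteins as well. Their files hold many more clusters, 161821 and 79916 for FUBP3 and 178339 and 27711 for KHSRP. The share of clusters with an expressed seed match was 2.60% and 2.27% for FUBP3 and 2.96% and 1.95% for KHSRP, far below the 20.5% and 15.1% of AGO2, and it was lower at the high dose in all 3 proteins. In 3′ UTR clusters matches were in 3.74% and 2.96% for FUBP3 and 3.98% and 1.73% for KHSRP.

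The dose differences in 3′ UTR and intron clusters did not have the same sign in AGO2 and FUBP3. The 3′ UTR share of clusters differed by -8.90 points in AGO2, by 1.79 points (1.46 to 2.13) in FUBP3 and by 0.12 points (-0.24 to 0.48) in KHSRP. The intron share differed by 4.65 points in AGO2, by -1.77 points (-2.18 to -1.36) in FUBP3 and by -5.95 points (-6.51 to -5.40) in KHSRP. The coding share differed by -3.16 points (-5.12 to -1.21) in AGO2 and by -0.21 points (-0.30 to -0.11) in FUBP3, the same sign, and by 1.07 points (0.91 to 1.24) in KHSRP. The share of reads in 3′ UTRs, in contrast, was lower at the high dose in all 3, by -1.47 points in AGO2, -6.71 in FUBP3 and -1.45 in KHSRP. T positions read as C were more frequent at the high dose in all 3 proteins, by 0.37 points in AGO2, 0.85 in FUBP3 and 2.25 in KHSRP. As the mean over clusters of the deposited fraction the AGO2 difference turned to -0.61 points, from 76.3% to 75.7%, while the means were 94.4% and 96.6% in FUBP3 and 83.0% and 95.4% in KHSRP. Distinct sequences were a smaller part of the reads at the high dose in all 3, by -6.77, -4.89 and -19.5 points. The median cluster length differed by 0 nt in AGO2 and KHSRP and by -1 nt in FUBP3.

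**Figure D5:**
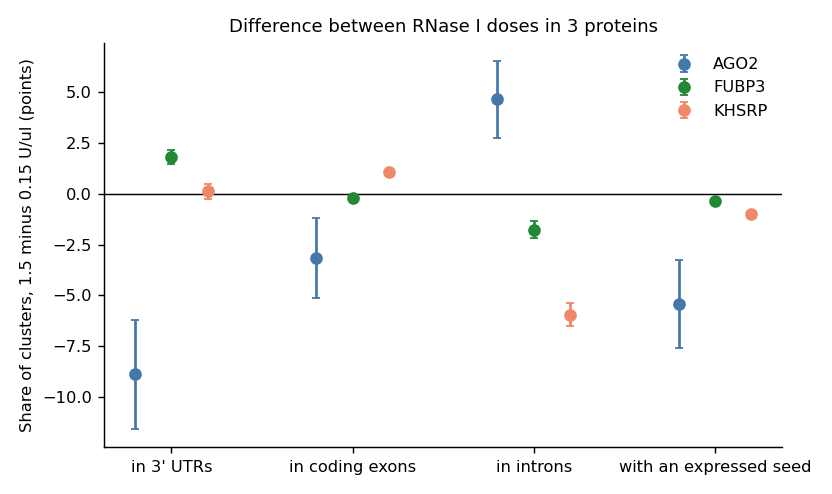
Difference in the share of clusters between 1.5 and 0.15 U/µl RNase I, in percentage points (y axis), for clusters in 3′ UTRs, coding exons and introns and clusters with an expressed seed match, in AGO2, FUBP3 and KHSRP, with 95% Newcombe intervals and 1 library per point and dose. AGO2 is below 0 for 3′ UTRs and above 0 for introns, KHSRP is below 0 for introns, and all 3 are below 0 for seed matches.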

How the data were processed

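One cluster table per library was deposited, with a class, a gene name, read counts, T-to-C counts and a sequence for each cluster. Per the file headers, the deposited counts are reads, distinct sequences and conversion events per cluster, and the deposited fraction is the T-to-C share of a cluster's reads. Reads were demultiplexed with bcl2fastq 2.20.0 and trimmed with cutadapt 1.15, per the submitters' processing notes, which also name hg38. Which aligner, caller and annotation were used is not given in the sources used here.

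A gene's share was its summed reads over all reads in the file. Genes with at least 50 reads at both doses were compared, and a share ratio of at least 2-fold was called. Intervals of shares are Wilson, of differences Newcombe, and of ratios exact binomial, all at 95%. They treat reads and clusters as independent, which PCR copies without molecular identifiers are not. tRNA genes came from RefSeq positions and miRNA sequences from RefSeq, in which 150 of the 170 microRNA genes with a cluster had a hairpin. tRNA overlap was by position, since the table gives no strand. Genes named are the 10 with most reads at each dose, the 12 with the largest ratio each way, the 10 with most reads at 1 dose only, list members with at least 50 reads at either dose, and the clusters with most reads at 1 dose or per seed family. Not every gene these rules pick is described. The members and the lists were chosen with earlier results of these data known. The scripts, in Python 3.11.15 with pandas 2.3.3, scipy 1.17.1 and statsmodels 0.14.6, were tested on simulated data with known answers.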

Additional observations from a re-analysis of the deposited data

Results flagged for a closer look

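In these contrasts the dose difference in the share of clusters of a class had opposite signs in AGO2 and in another protein, each measured in 1 library per dose. The differences between proteins were not tested. For 3′ UTRs the difference in AGO2 minus that in FUBP3 was -10.7 points and minus that in KHSRP -9.01 points, and KHSRP's own difference was within counting error of 0. For introns the AGO2 difference exceeded that in FUBP3 by 6.42 points and that in KHSRP by 10.6 points. For coding exons it was -4.23 points against KHSRP. The number of clusters per file, 2425 and 2374 in AGO2 against 27711 to 178339 in the others, moved with these contrasts, and its part in them was not tested.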

How the results depend on the processing

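Of 29 alternatives 15 left the result within its interval or within 1.5 times the count, 13 moved it and 1 turned its sign. The 3′ UTR difference was -1.47 points with reads in place of clusters, and the microRNA difference was 8.76 points, not 11.6, with distinct sequences. The 6 of 180 genes (3.33%) toward 0.15 U/µl became 53 of 419 (12.6%) with distinct sequences and a minimum of 10. They became 30 of 313 (9.58%) with a minimum of 20 reads. The 6 of 180 (3.33%) toward 1.5 U/µl became 33 of 419 (7.88%) and 19 of 313 (6.07%) under these settings. With a minimum of 100 reads they became 3 of 120 (2.5%). With microRNA genes left out, 2 of 105 (1.9%) were toward 0.15 U/µl, SNORA19 and KLHL15, and 9 of 105 (8.57%) toward 1.5 U/µl. Overlap of 50% of each cluster gave 36.8% and 37.6% for the low and high dose, and clusters of at least 10 reads gave 53.5% and 56.7%. The T-to-C difference of 0.37 points was -0.61 points as the mean over clusters of the deposited fraction, which weights each cluster equally. The median length differed by -1 nt for clusters of at least 10 reads. No paired analysis was possible because each dose had 1 library. The seed of miR-320 was not searched. With 50 or more reads in 180 of 2160 gene names, most genes were too shallow for a ratio.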
